A study of Bos taurus with 32 samples.

Results

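The genes described here release the precursor of prostaglandins, build prostaglandins, bind them or inactivate them in the bovine endometrium. Of 9 genes listed, 7 were found on the array by their symbol, with 1 probe each among 15208 probes. These were PTGS1, PTGS2, PTGES, PTGIS, PTGFR, PTGER2 and PTGER4. The other 2 genes had probes under other names. HPGD had 1 probe, named PGDH. PLA2G4A had 2 probes, of which one was named PLA2G4 and the other carried a locus name and was matched by its description. PTGS1 and PTGS2 each had a second probe under an older name (COX1 and COX2). All of these probes are described below, and counts of members refer to the 7 found by symbol.

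RNA came from non-lactating Japanese Black cows at Day 15 of their cycle. The 4 repeat breeder (RB) cows had repeatedly failed to conceive after insemination. The 4 non-RB cows, called normally fertile in the labels, had conceived, were aborted with the prostaglandin F2α analogue cloprostenol and then cycled normally before collection, so the effects of that recent, terminated pregnancy and of the dose of cloprostenol cannot be told apart from the group. From each cow, caruncular (CAR) and intercaruncular (ICAR) endometrium was taken from the horn ipsilateral and the horn contralateral to the corpus luteum. CAR are the raised aglandular areas where the placenta attaches, and ICAR is the glandular tissue between them. Each of the 8 combinations of group, area and horn had 4 single-colour arrays, 1 from each cow, 32 in all.

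Prostaglandins are short-range lipid signals made from arachidonic acid, which phospholipases such as PLA2G4A free from membranes. The cyclooxygenases PTGS1 and PTGS2 turn it into the common precursor, and terminal synthases such as PTGES and PTGIS turn that precursor into prostaglandin E and prostacyclin. In the cow, pulses of prostaglandin F2α from the endometrium end the life of the corpus luteum when no embryo signals its presence, whereas prostaglandin E is regarded as supporting the corpus luteum. PTGFR is the receptor for prostaglandin F, PTGER2 and PTGER4 are receptors for prostaglandin E, and HPGD is the dehydrogenase that starts the inactivation of both.

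PTGS1, PTGS2 and PLA2G4A had a pair of probes each, and in each pair one probe gave a signal and the other did not. For that reason 30 of the 60 bases of these 6 probes are shown first, followed by the probes of the 3 genes with an unadjusted p under 0.05 between CAR and ICAR. Sequences are from the scanner files, 5′ to 3′, and capitals mark AATAAA, the signal for cleavage and polyadenylation in the last part of many transcripts.
PTGS1, found by symbol, bases 1 to 30: atcctcatcggggagaccatcaagattgtg
PTGS1, named COX1, bases 31 to 60: atggcagctgtttctcatgaagctAATAAA
PTGS2, found by symbol, bases 1 to 30: tgttaaatatctgaatgactgaatctggga
PTGS2, named COX2, bases 1 to 30: tttgcaagttttcaggtaaacctcagctca
PLA2G4A, named PLA2G4, bases 1 to 30: tgtaaggatatacttagctacattttcagt
PLA2G4A, under a locus name, bases 1 to 30: gaactagaaaatattacagcaaagcatatt
HPGD, named PGDH, bases 1 to 30: aatttatggagaagtctttgtactggtggc
PTGER4, found by symbol, bases 1 to 30: ttgagcctgatagtaatgtggttttaagaa
PTGIS, found by symbol, bases 1 to 30: aaagcagacgctggccataaaaaggccatt
Among the probes of the 9 genes, AATAAA was present on the printed strand in the COX1 probe of PTGS1 and in the probe of PTGES, and among all probes on the array in 1714 of 15208 (11.3%).

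Levels are given as log2 of the processed intensity minus log2 of that array's 75th percentile, so a level of 0 equals the percentile. Levels of different probes are not compared, because probes differ in how well they bind. Of the 7 members, 5 were well above background on all 32 arrays: PTGS2, PTGES, PTGIS, PTGER2 and PTGER4. PTGFR was well above background on 0 of 32 arrays, and the PTGS1 probe found by symbol on 1 of 32, an RB array of contralateral ICAR. Both therefore lay at or near background, which gives only a bound on their level, and neither passed the filter. The COX1 probe of PTGS1 was well above background on all 32 arrays, and so were the HPGD probe and the PLA2G4A probe under a locus name. The COX2 probe of PTGS2 and the PLA2G4 probe of PLA2G4A were on 0 of 32. The pair of probes of each of these 3 genes thus disagreed on whether the gene was measured. In all, 8 probes of 8 genes had levels.

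2 kinds of array stood apart. First, the difference of CAR minus ICAR over all probes was compared between the 16 pairs of arrays from the same cow and horn. The contralateral pair of RB cow 3 had a correlation of -0.84 across probes with the mean of the other 15 pairs, against -0.15 to 0.80 for the other pairs, of which 13 were above 0.1. These 2 arrays went against their labels for area, so the results of the members that rest on them are also given without them, and the cause was not tested. Leaving them out was decided after their values were seen, and by itself it favours larger differences between CAR and ICAR. Second, the 2 non-RB arrays on slide 1 (CAR contralateral of cow 2 and ICAR contralateral of cow 1) had repeated GAPDH probes that varied more than on any other array (SD 1.32 and 0.87 on the log2 scale, against a median of 0.15 over the 32 arrays). On one of them the COX1 probe of PTGS1 read lower than anywhere else, at -5.23 on that CAR array against -3.61 to -2.51 on all others.

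**Figure D1:**
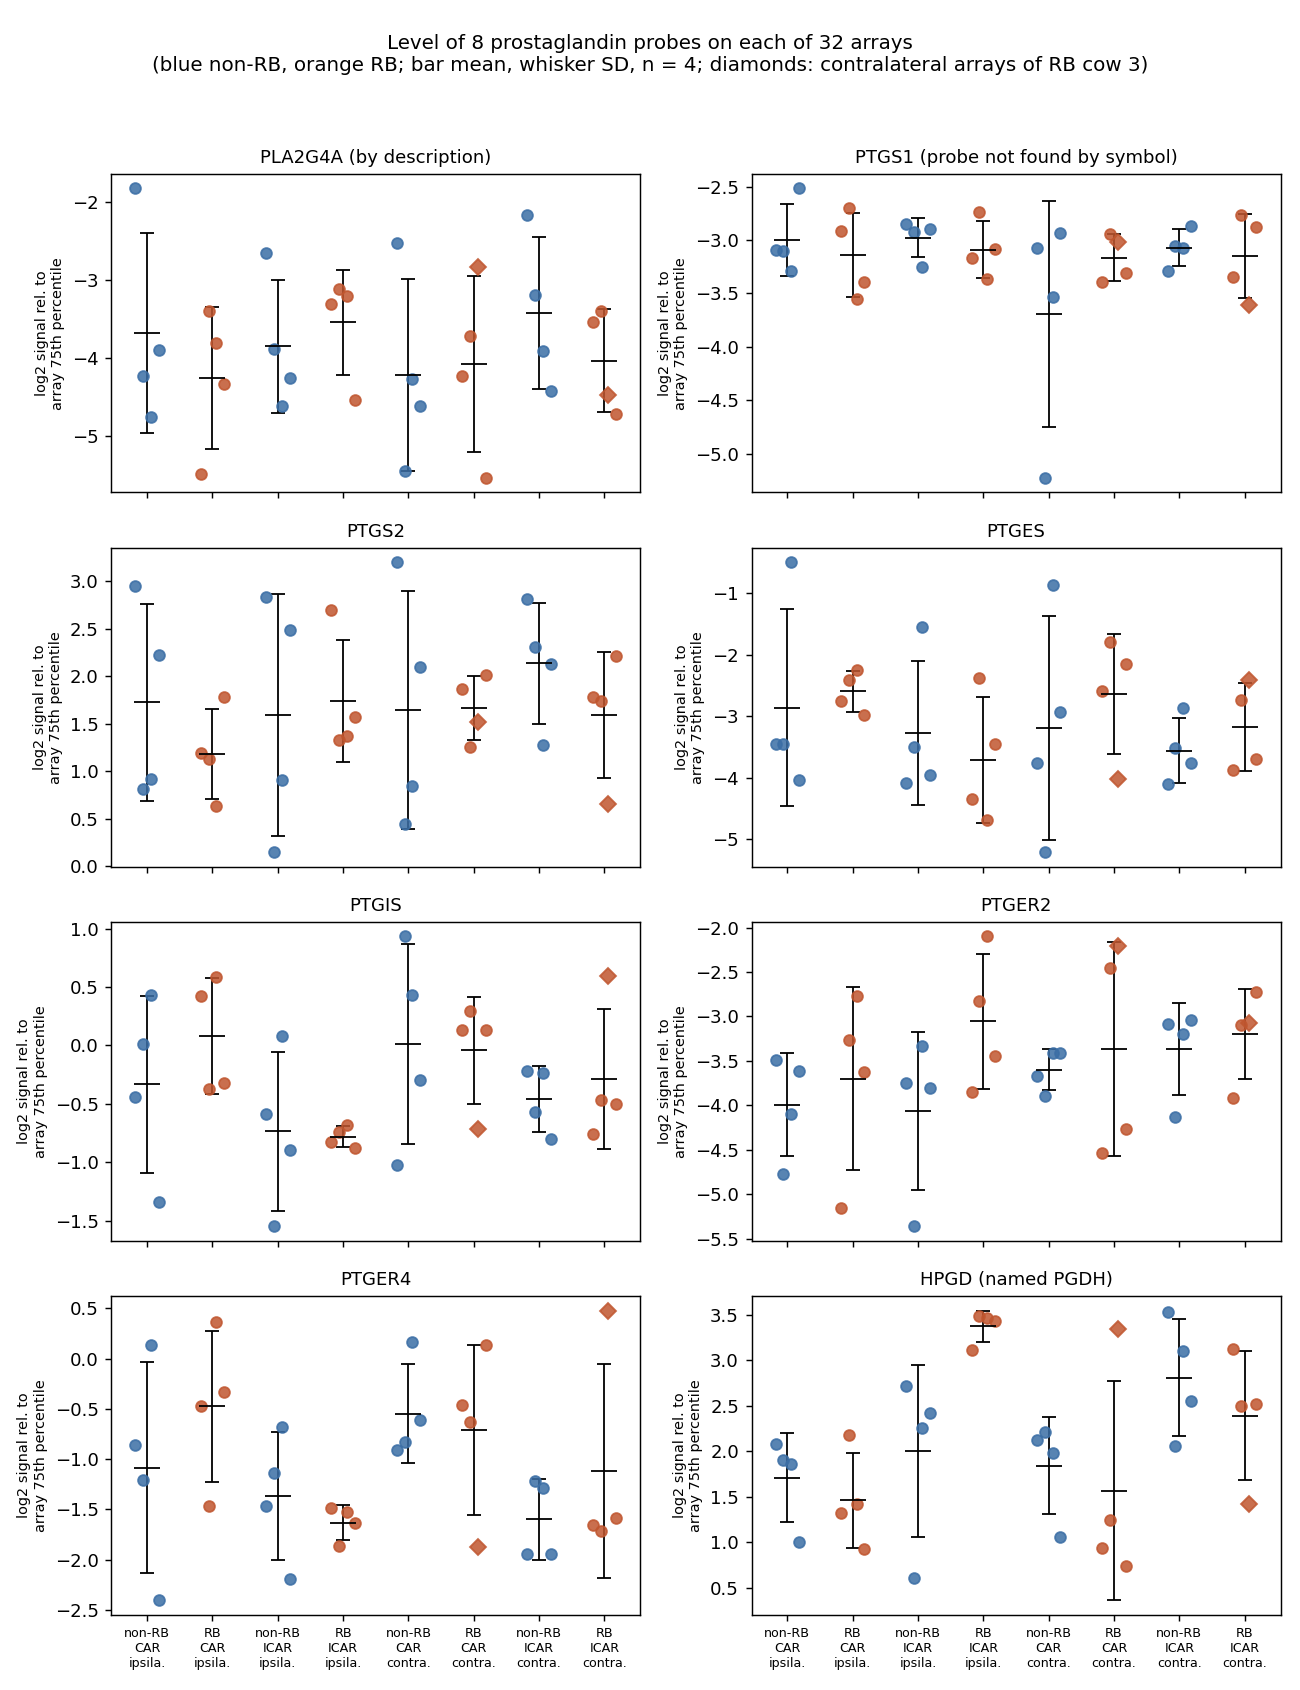
Level of each of the 8 measured probes (log2 signal relative to the array's 75th percentile, an axis of its own in each panel) on the 32 arrays, by group, area and horn; points are arrays, bars means and whiskers SD (n = 4). The diamonds, the contralateral arrays of RB cow 3, lie away from the other RB arrays for PTGER4 in ICAR (0.48 against -1.71 to -1.59) and for HPGD in CAR (3.34 against 0.74 to 1.24).

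Between CAR and ICAR, HPGD was lower in CAR and PTGER4 and PTGIS were higher in CAR. However, PTGER4 passed the threshold only in 3 of 20 alternative fits. PTGIS passed it only in 1 of 20, the fit without the contralateral arrays of RB cow 3. With all arrays 0 of the 5 members tested was called by limma at an adjusted p under 0.05, against 174 of 12919 probes (1.35%), and 2 of the 5, both higher in CAR, had an unadjusted p under 0.05, against 16.2% of all probes and 8.69% that were higher. Unless a block is named, these limma fits between the areas had none for the cow, so they took the arrays of a cow as independent. The sign-flip tests below used cows. The methods' t-test with the same adjustment called 0 of all probes. The median difference of the 5 members was 0.49 on the log2 scale and that of all probes tested 0.02. Without the contralateral arrays of RB cow 3, limma called 1284 of 12879 probes (9.97%), 2 of the 5 members (PTGER4 and PTGIS) among them.

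HPGD, the enzyme of inactivation, had in CAR of the ipsilateral horn levels of 2.08, 1.90, 1.86 and 0.997 in non-RB and of 1.32, 2.18, 1.41 and 0.92 in RB cows. In ICAR of that horn the levels were 2.72, 0.61, 2.26 and 2.42 in non-RB and 3.12, 3.48, 3.47 and 3.43 in RB cows. The RB cows did not overlap between the areas in the ipsilateral horn, whereas non-RB cow 2 was lower in ICAR than in CAR. In the contralateral horn CAR gave 2.12, 2.21, 1.98 and 1.05 in non-RB and 0.94, 1.24, 3.34 and 0.74 in RB cows. ICAR there gave 3.52, 2.06, 3.10 and 2.55 in non-RB and 3.12, 2.50, 1.42 and 2.52 in RB cows. RB cow 3 was thus high in CAR and low in ICAR, the reverse of the other RB cows. Over all arrays the HPGD difference was -0.9997 (log2, SE 0.26; limma p = 0.000588, adjusted p = 0.0485), with CAR the lower in 7 of 8 cows and 13 of 16 pairs (exact sign-flip test over cows, p = 0.0234, two-sided). When the contralateral arrays of RB cow 3 were left out, the difference was -1.19 (adjusted p = 0.00163), lower in CAR in 13 of 15 pairs. The adjusted p was above 0.05 when any of 6 cows (RB cows 1, 2 and 4 and non-RB cows 1, 3 and 4) was left out in turn (0.0729 to 0.312), and limma then called 0 of all probes, with 1242 to 2241 at an unadjusted p under 0.05. On all 6 slides that held both areas HPGD was lower in CAR, with differences from -1.46 to -0.67. Slides 2 and 7 held the same cows and horns in both areas. The others did not, and slide 1 held only the arrays set apart above, from different cows. In bulk tissue, fewer cells of a type and less RNA in each cell cannot be told apart.

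Markers of glandular epithelium and of ciliated cells moved with HPGD between the areas. Of 8 glandular probes tested, 3 were called, all lower in CAR: FOXA2 (-1.69), SPDEF (-1.92) and BPIFB1 (-2.11), a pair of gland transcription factors and a secreted gland protein. The other 5 differed by -0.70 to 0.07, and PAEP, the ninth probe, was well above background on 5 of 32 arrays. The signal summed over the list, relative to the array's 75th percentile, ran from 5.89 to 22.5 over CAR and from 4.96 to 36.2 over ICAR arrays. The array of ICAR with the lowest sum was that of RB cow 3 (4.96), and the next was that of non-RB cow 2 in the ipsilateral horn (5.87), the ICAR arrays with HPGD at 1.42 and 0.61. Among RB cows in ipsilateral ICAR, by contrast, the highest sum (23.98) came with the lowest HPGD (3.12). The lowest sum there (13.7) came with the highest HPGD (3.48). Of 3 probes for ciliated cells 2 were called, CAPS (-1.22) and DNAI1 (-1.19), a dynein chain of motile cilia, both lower in CAR. The third, TPPP3, was at -0.17, and the signal summed over the list ran from 1.83 to 6.91 over CAR and from 2.40 to 10.1 over ICAR arrays. Of 7 probes for epithelium in general, 7 were lower in CAR and 3 had an unadjusted p under 0.05, with 0 called, a median of -0.25 and sums of 17.7 to 54.97 over CAR and 13.5 to 78.1 over ICAR arrays. None of these 3 lists held a probe that was below background on every array. Like that of HPGD, the 5 marker calls were lost without any of the same 6 cows (adjusted p of 0.0553 to 0.292), whereas each of them was kept without RB cow 3 or non-RB cow 2. Without the slide 1 arrays and by the methods' t-test, 0 of all probes were called. Without the contralateral arrays of RB cow 3, 4 of 8 glandular, 2 of 3 ciliated and 3 of 7 epithelial probes were called, all lower in CAR, against 9.97% of all probes. The part of gland, ciliated cell or epithelial content in the HPGD difference was not tested.

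PTGER4, a receptor for prostaglandin E, had in CAR of the ipsilateral horn levels of -0.86, -1.21, 0.13 and -2.40 in non-RB and of -0.47, -1.46, 0.36 and -0.33 in RB cows. ICAR of that horn gave -1.47, -1.14, -0.68 and -2.20 in non-RB and -1.49, -1.87, -1.53 and -1.64 in RB cows. The areas overlapped in non-RB cows, where cow 4 was low in both, and did not overlap in RB cows. In the contralateral horn CAR gave -0.91, -0.83, 0.16 and -0.61 in non-RB and -0.46, -0.63, -1.88 and 0.13 in RB cows. ICAR there gave -1.95, -1.22, -1.28 and -1.94 in non-RB and -1.66, -1.71, 0.48 and -1.59 in RB cows. The areas did not overlap in non-RB cows, and RB cow 3 was again the reverse of the others. The difference was 0.73 (SE 0.24; limma p = 0.00534, adjusted p = 0.104), higher in CAR in 7 of 8 cows and 13 of 16 pairs (exact p = 0.0234). With the cow as a block it was called (adjusted p = 0.0367). Without the contralateral arrays of RB cow 3 it was 0.93 (1.91-fold; adjusted p = 0.00424), higher in CAR in 8 of 8 cows (exact p = 0.00781, the smallest that 8 cows allow).

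PTGIS, the prostacyclin synthase, lay between -1.34 and 0.93 over CAR and between -1.55 and 0.59 over ICAR arrays. It was higher in CAR by 0.49 (SE 0.19; limma p = 0.0141, adjusted p = 0.166), in 6 of 8 cows and 13 of 16 pairs (exact p = 0.0469). In the contralateral pair of RB cow 3 the difference was -1.31, and without it the mean was 0.61 (adjusted p = 0.0280) and positive in 7 of 8 cows. PTGES, a prostaglandin E synthase, differed by 0.61 (SE 0.36; adjusted p = 0.433) and was higher in CAR in 7 of 8 cows and 12 of 16 pairs (exact p = 0.0547). Its pairs ran from -1.70 to 2.43. Neither PTGS2 nor PTGER2 was called, with differences of -0.21 (SE 0.27) and -0.24 (SE 0.25). The PLA2G4A and PTGS1 probes differed by -0.34 (SE 0.32) and -0.18 (SE 0.16), which without the slide 1 arrays were -0.15 and -0.06. No member was called for a difference between the horns in its CAR minus ICAR difference (0 of 5, limma; unadjusted p under 0.05 in 0 of 5, against 1.09% of all probes).

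Stromal markers lay on the same side as PTGER4 and PTGIS. Of 6 stromal probes, 6 were higher in CAR, with a median of 0.46, and 4 had an unadjusted p under 0.05: COL1A1 (0.60), COL1A2 (0.58) and PDGFRA (0.48), which code for collagen chains and a growth factor receptor, and THY1 (0.44). With all arrays limma called 0 of them, and without the contralateral arrays of RB cow 3 it called 1, COL1A2 (0.73, adjusted p = 0.0223). Of 5 smooth muscle probes, 3 were higher in CAR, and DES, the gene of the muscle filament desmin, had an unadjusted p under 0.05 (0.64; 0.74 and called without those arrays, adjusted p = 0.0464). The summed stromal signal ran from 44.9 to 143.5 over CAR and from 29.9 to 116.1 over ICAR arrays, and the summed smooth muscle signal from 15.7 to 33.1 and from 7.11 to 34.3. All 11 of these probes were well above background on all 32 arrays. The part of stromal or muscle content in the PTGER4 and PTGIS differences was not tested.

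**Figure D2:**
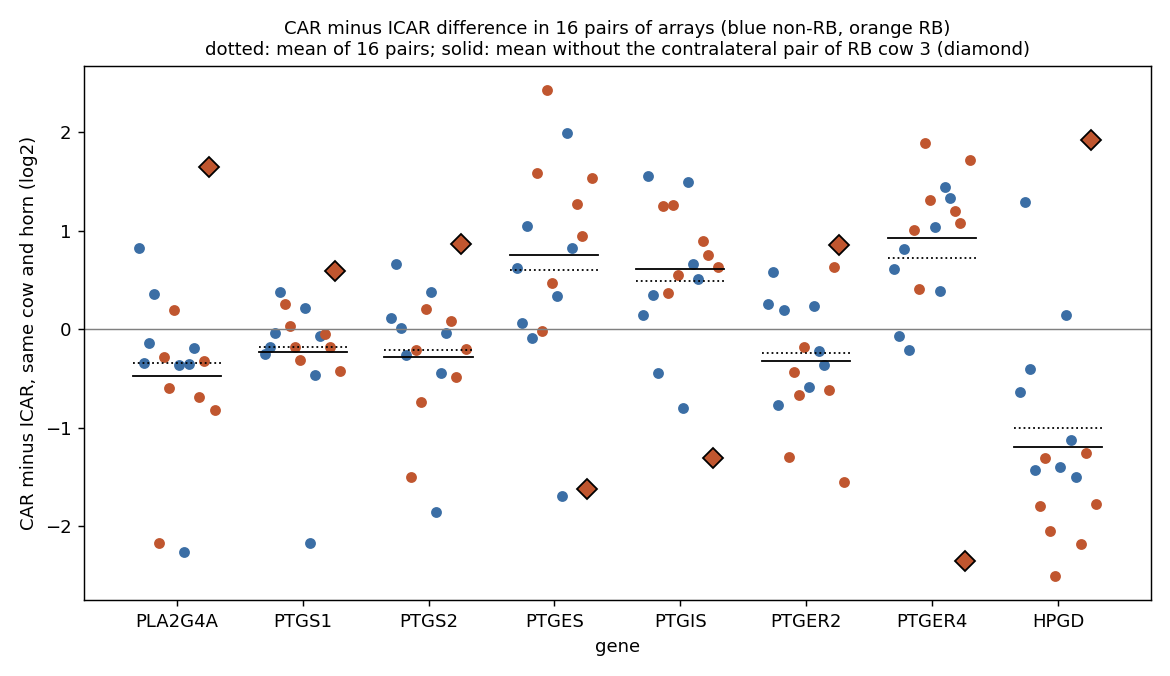
CAR minus ICAR difference (log2) of each measured gene in the 16 pairs of arrays from the same cow and horn; dotted lines are means of all pairs, solid lines means without the contralateral pair of RB cow 3 (diamond). HPGD lies below 0 in 13 pairs and PTGER4 and PTGIS above 0 in 13 pairs each, and the diamond lies on the other side of 0 for all 3.

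The other genes of the pathway, from a list of roles, had 40 probes, of which 38 were tested over all arrays. With all arrays 1 of 38 was called between CAR and ICAR, against 1.35% of all probes. This was AKR1C4, an aldo-keto reductase listed with the terminal synthases, which was lower in CAR by 1.62 (SE 0.40; limma adjusted p = 0.0397). This call too was lost without any of the 6 cows named above (adjusted p of 0.0721 to 0.295, with differences of -1.91 to -1.36 over all 8 omissions). With the contralateral arrays of RB cow 3 left out, 4 of 38 were called, which was close to the 9.97% of all probes. AKR1C4 was then at -1.99 (adjusted p = 0.000459), higher in CAR in 2 of 15 pairs. PTGER3, another receptor for prostaglandin E, was at 0.97 (adjusted p = 0.0490), higher in CAR in 13 of 15 pairs. PTGDS, a prostaglandin D synthase, was at 0.48 (adjusted p = 0.0155), and 1 of the probes of PTGR3, a prostaglandin reductase, at 0.49 (adjusted p = 0.0264), both higher in CAR in 8 of 8 cows. With all arrays PTGDS (0.42), PTGER3 (0.80) and that PTGR3 probe (0.40) were not called, with adjusted p of 0.0748, 0.188 and 0.139. The median difference of the 38 probes with all arrays was 0.05.

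**Figure D3:**
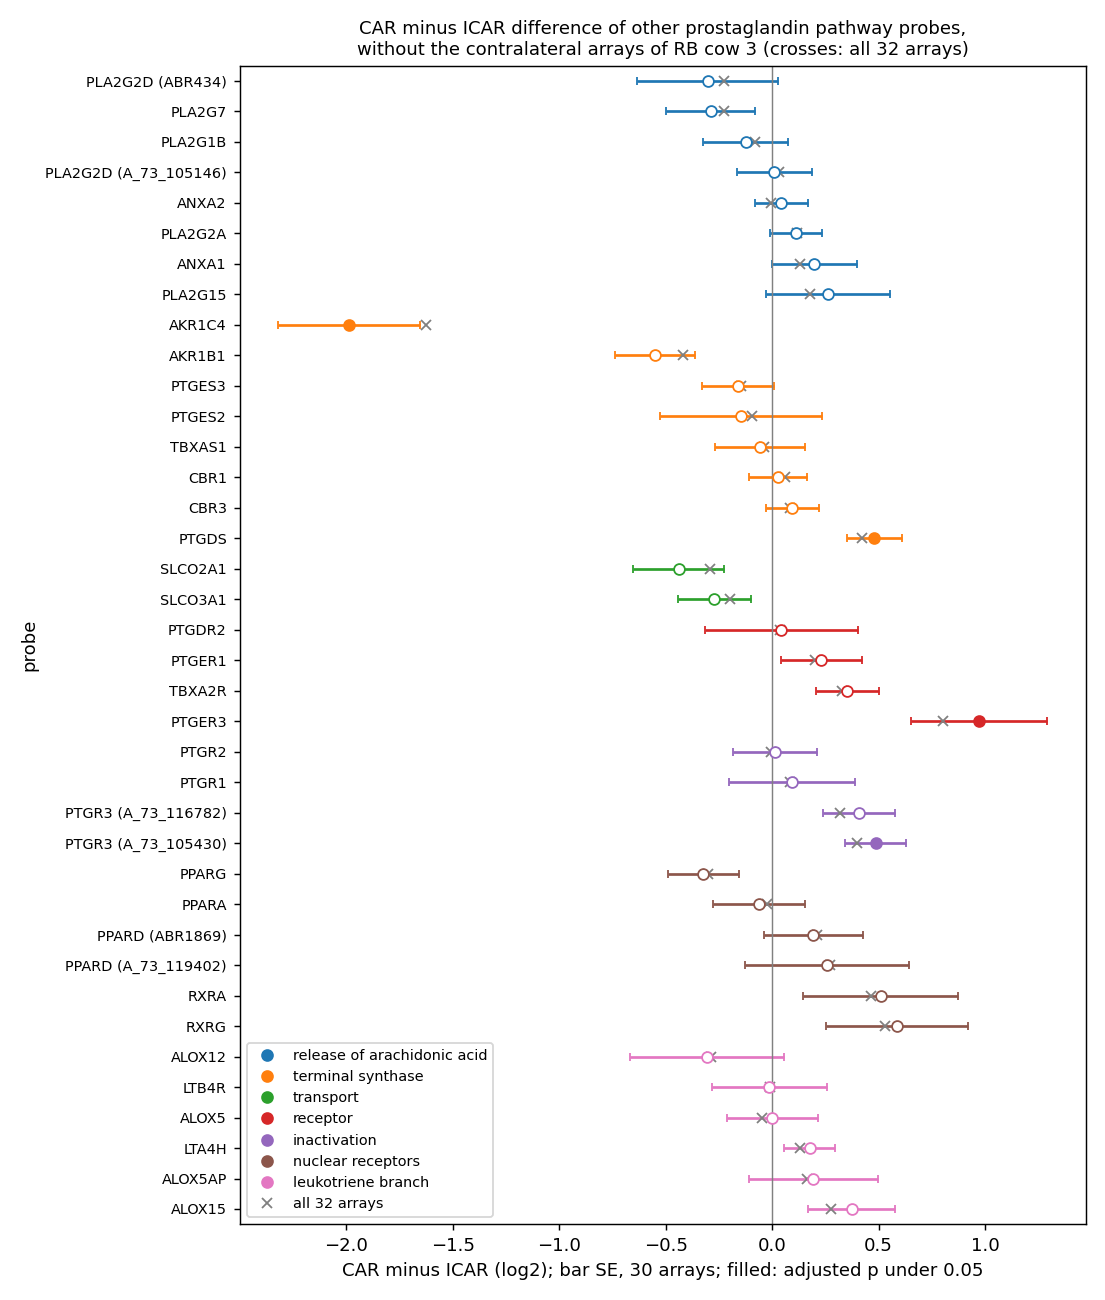
CAR minus ICAR difference (log2) of 38 other pathway probes grouped by role, without the contralateral arrays of RB cow 3 (circles with SE, filled where the limma adjusted p was under 0.05), and with all 32 arrays (crosses). AKR1C4 lies lowest at -1.99 and PTGER3 highest at 0.97.

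Between RB and non-RB cows no member was called. In each of the 4 compartments and in the whole uterus (the mean of each cow's 4 arrays), limma called 0 of the 5 members tested and 0% of all probes tested. At an unadjusted p under 0.05 it was also 0 of 5 in each, where all probes gave 3.41% in ipsilateral CAR, 3.69% in ipsilateral ICAR, 1.74% in contralateral CAR, 1.6% in contralateral ICAR and 2.23% in the whole uterus. The methods' t-test on cows called 0 probes after adjustment in each of the 5 comparisons. Run on 16 against 16 arrays as if each were a separate animal, it called 67 of 12919 probes and 0 of the 5 members. The differences of these 5 members ran from -0.54 (PTGS2, ipsilateral CAR and contralateral ICAR) to 1.01 (PTGER2, ipsilateral ICAR). Outside this count, HPGD reached 1.37 in ipsilateral ICAR. The PLA2G4A probe ran from -0.61 (contralateral ICAR) to 0.31 (ipsilateral ICAR). With the contralateral arrays of RB cow 3 left out, limma again called 0 probes in both contralateral compartments. The 5 members then ran from -0.23 (PTGS2, ICAR) to 1.01 (PTGES, CAR), with HPGD at -0.87 in CAR and PLA2G4A at -0.46 in ICAR. With 4 cows a group the exact test cannot go below p = 0.0286.

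PTGS2, the inducible cyclooxygenase, did not separate the groups. In ipsilateral CAR it was at 2.95, 0.81, 0.92 and 2.22 in non-RB and at 1.19, 1.12, 0.63 and 1.78 in RB cows. In ipsilateral ICAR non-RB cows gave 2.84, 0.15, 0.91 and 2.48, and RB cows 2.69, 1.33, 1.37 and 1.57. Non-RB cows 1 and 4 were the higher and cows 2 and 3 the lower in both, and the groups overlapped. PTGER2 in ipsilateral ICAR was at -3.75, -5.36, -3.33 and -3.81 in non-RB and at -3.85, -2.83, -2.10 and -3.44 in RB cows, which also overlapped (difference 1.01, SE 0.50, limma adjusted p = 0.863). PTGES was highest in non-RB cow 3, at -0.50 in ipsilateral and -0.86 in contralateral CAR, where the other non-RB arrays of these areas lay between -5.21 and -2.94. For each measured probe, neighbours in the order of the 8 group means had arrays that overlapped.

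**Figure D4:**
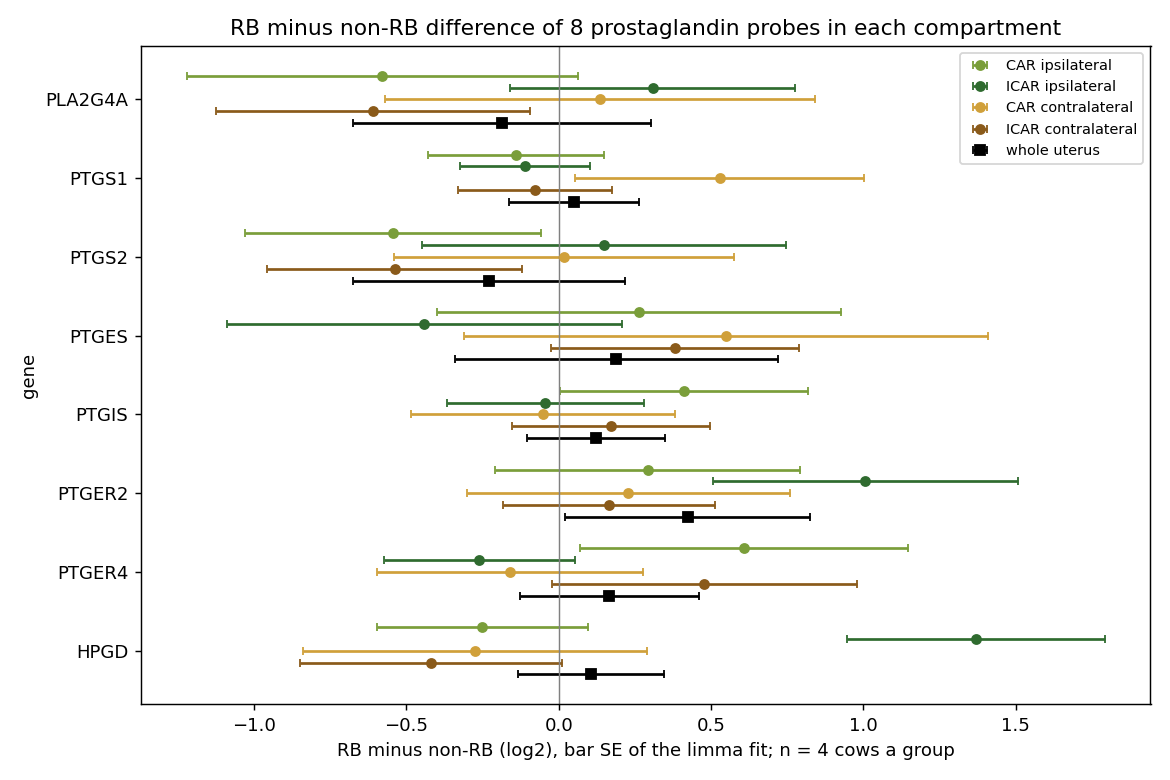
RB minus non-RB difference (log2) of the 8 measured probes in each compartment and the whole uterus, with the SE of the limma fit (4 cows a group). The HPGD point of ipsilateral ICAR lies farthest from 0, at 1.37.

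HPGD did not overlap between the groups in ipsilateral ICAR. The 4 RB cows lay between 3.12 and 3.48 and the 4 non-RB cows between 0.61 and 2.72, and such a separation was found for 2.22% of all probes tested there. The difference was 1.37 (SE 0.42; 2.58-fold; limma p = 0.00962, adjusted p = 0.863; exact p = 0.0286), so it did not pass the adjustment over all probes. Without non-RB cow 2 it was 0.91 (adjusted p = 0.983), and without any other single cow 1.33 to 1.61. Slides 6 and 8 each held 1 array of this compartment from each group, and the RB array was the higher by 1.17 and 2.51. With the slide as a block the difference was 1.84 (adjusted p = 0.222). That value rests on slides 6 and 8 alone, and the non-RB array on slide 8 was that of cow 2 (0.61). In the other compartments it was -0.25 (ipsilateral CAR), -0.27 (contralateral CAR) and -0.42 (contralateral ICAR), and the groups overlapped. With the arrays of RB cow 3 left out, the contralateral values were -0.87 in CAR (limma p = 0.0316, adjusted p = 0.9995; exact p = 0.0857) and -0.10 in ICAR.

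Beside HPGD, 2 of 8 glandular probes had an unadjusted p under 0.05 in ipsilateral ICAR, both higher in RB cows: BPIFB1 (1.89) and SPDEF (1.65). Neither was called. Of the 8 probes, 5 were higher in RB cows, with a median of 0.50. PIGR (-0.52) and both probes of LTF (-0.12 and -0.24) were lower. The summed glandular signal there ran from 13.7 to 23.98 in RB and from 5.87 to 24.5 in non-RB cows, so the ranges overlapped. The median sums were 16.7 in RB and 17.1 in non-RB cows. Of 7 probes for epithelium in general, 1 was higher and 1 lower in RB cows at such a p, and of 6 stromal, 5 smooth muscle and 3 ciliated cell probes 0 were. Their part in the HPGD difference was not tested. Of the other pathway genes, AKR1C4 differed by 1.53, with RB cows the higher and no overlap (SE 0.38; limma p = 0.00255, adjusted p = 0.863; exact p = 0.0286). The thromboxane receptor TBXA2R was at -0.66 without overlap and the carbonyl reductase CBR3 at -0.61, each at an unadjusted p under 0.05 and an adjusted p of 0.863. In all, 3 of 38 pathway probes had such a p, 1 higher and 2 lower, against 3.69% of all probes.

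Between the ipsilateral and the contralateral horn no member was called (limma, 0 of 5; 0 of 5 also at an unadjusted p under 0.05, against 1.36% of all probes, and 0 by the methods' t-test). PTGER2 was lower in the ipsilateral horn in 7 of 8 cows, by 0.32 on average (a difference of -0.32, SE 0.25; limma adjusted p = 0.9999; exact p = 0.0234). PTGIS was at -0.25, PTGS2 at -0.20, PTGER4 at -0.15 and PTGES at 0.03, with SE between 0.19 and 0.36. The PLA2G4A, PTGS1 and HPGD probes were at 0.11, 0.22 and -0.02.

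The small mean horn difference of HPGD was made of opposite ones in the 2 groups. The ipsilateral horn was higher in 6 of 8 RB pairs and in 0 of 8 non-RB pairs, where each cow gave a pair in each area. In ICAR, ipsilateral minus contralateral was -0.81, -1.45, -0.84 and -0.13 in non-RB cows and -0.00491, 0.98, 2.04 and 0.91 in RB cows. In CAR it was -0.04, -0.31, -0.12 and -0.06 in non-RB cows and 0.38, 0.94, -1.93 and 0.18 in RB cows. The groups overlapped in CAR, because RB cow 3 was the lowest of all cows there. Averaged over the areas, where 0 of 5 members by symbol had an unadjusted p under 0.05 (6% of all probes did), the HPGD difference between RB and non-RB cows was 0.91 (SE 0.25; limma p = 0.00462, adjusted p = 0.792; exact p = 0.0286) without overlap, which was so for 3.76% of all probes tested. Within ICAR, where again 0 of 5 had such a p (7.92% of all probes), it was 1.79 (SE 0.44; limma p = 0.00283, adjusted p = 0.614; exact p = 0.0286), where 5.46% of all probes did not overlap. Without the contralateral arrays of RB cow 3, whose ICAR difference was the largest of the RB cows, these were 1.03 (exact p = 0.0286) and 1.44 (exact p = 0.0571), with all 7 cows still apart in each. Neither passed the adjustment over all probes.

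**Figure D5:**
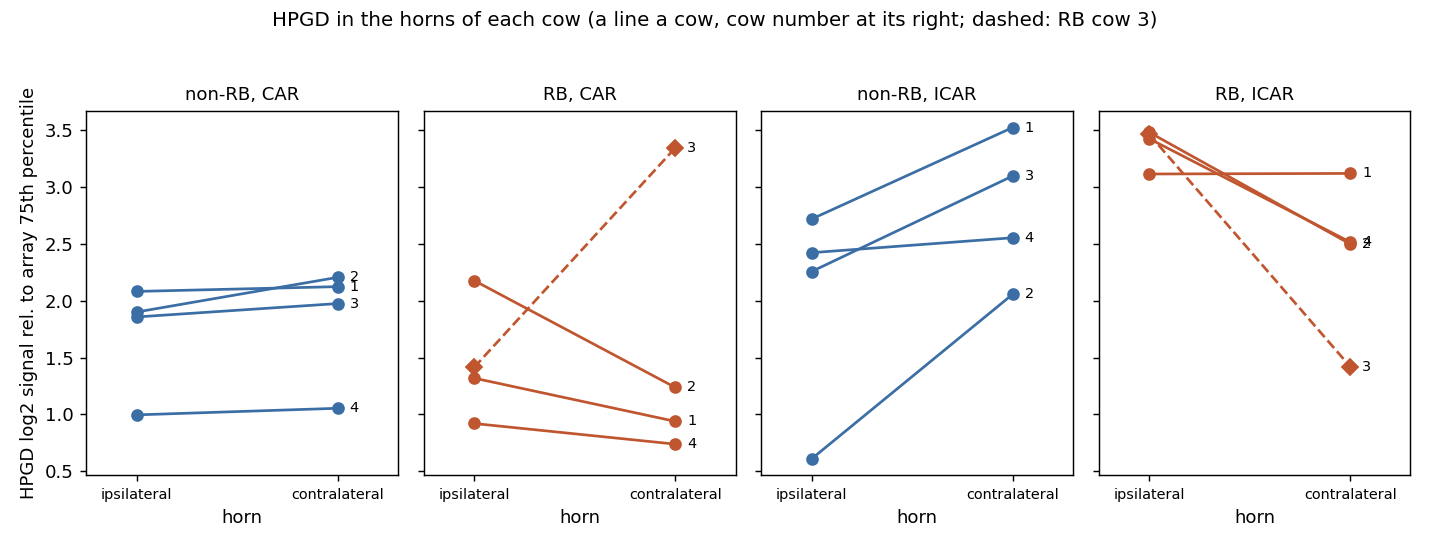
HPGD level (log2 signal relative to the array's 75th percentile) in the ipsilateral and contralateral horn, a line for each cow, by group and area. In ICAR the 4 non-RB lines rise towards the contralateral horn, by 0.13 to 1.45, and 3 RB lines fall; dashed lines are RB cow 3.

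Glandular probes moved with HPGD in this comparison as well: within ICAR 5 of 8 had an unadjusted p under 0.05, against 7.92% of all probes. These were FOXA2, SPDEF, BPIFB1 and both probes of LTF, all with a higher ipsilateral minus contralateral value in RB cows and none called. PIGR went the other way (-0.23), and the median difference of the 8 probes was 1.60, against -0.04 for all probes. When the contralateral arrays of RB cow 3 were left out, 3 of 8 had such a p (3.53% of all probes did), with a median of 1.53. The summed glandular signal in contralateral ICAR ran from 4.96 (RB cow 3, with 10.6 the next) to 17.9 in RB cows. In non-RB cows it ran from 15.5 to 36.2 (cow 1, a slide 1 array, with 23.2 the next). Of the 3 ciliated cell probes, DNAI1 (1.295) and CAPS (1.52) had such a p with all arrays, and 1 of them, DNAI1 (1.08), without that cow's contralateral arrays. Stromal and smooth muscle probes lay on the other side. With all arrays 0 of 6 and 0 of 5 were positive, with medians of -0.36 and -0.50 and 1 of each, THY1 (-0.96) and DES (-1.05), at an unadjusted p under 0.05. Without that cow's contralateral arrays the medians were -0.12 and -0.50, with 0 at such a p. Of 7 probes for epithelium in general 1 had such a p with all arrays and 0 without that pair, as did 2 and 0 of 12 T and NK cell and 1 and 0 of 8 endothelial probes. In contralateral ICAR the summed ciliated signal ran from 2.99 to 6.46 in RB (from 4.85 without RB cow 3) and from 3.40 to 10.1 in non-RB cows, and the stromal from 69.3 to 91.7 and from 29.9 to 90.9. No marker probe of these lists was called, and their part in the HPGD difference was not tested. The PLA2G4A probe under a locus name differed in the same way within ICAR (0.92, SE 0.33; limma p = 0.0200, adjusted p = 0.614; exact p = 0.0286). Its ipsilateral minus contralateral values were -0.48, -0.69, -0.70 and 0.16 in non-RB and 0.23, 0.28, 1.27 and 0.18 in RB cows, so the highest non-RB and the lowest RB cow nearly met. It was 0.66 without the contralateral arrays of RB cow 3, and the cows of the groups still did not overlap (exact p = 0.0571).

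Of the other pathway genes, with all arrays, PTGDR2, a receptor for prostaglandin D, showed a difference between the groups in the horn effect of -1.33 (SE 0.31; limma p = 0.00181, adjusted p = 0.792; exact p = 0.0286) without overlap. It was the 1 of 38 with an unadjusted p under 0.05, against 6% of all probes. Within CAR, where no member had such a p (0 of 5, against 0.8% of all probes), PTGER3 was at 1.36 (adjusted p = 0.9999). Within ICAR, PTGER3 was at -1.33 and AKR1C4 at 2.06, each with an adjusted p of 0.614. At an unadjusted p under 0.05 there were 1 higher and 1 lower of 38, against 7.92% of all probes. These pathway values include the contralateral arrays of RB cow 3, which went against their labels for area. They are not given without those arrays. The RB effect was compared between CAR and ICAR in the same way, and 0 of 5 members had an unadjusted p under 0.05, against 0.9% of all probes. HPGD was at -0.74 there (p = 0.211, limma), and at -1.17 without the contralateral arrays of RB cow 3 (exact p = 0.114).

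The genes whose pattern over the 32 arrays was most like a member's are given as a description. These values are correlations over arrays that share cows and slides, taken among 3136 named genes. HPGD was most like MANBA (r = 0.88), PDZK1 (0.87) and BPIFB1 (0.85), the last a glandular marker named above. PTGER4 was most like AKAP4 (0.92), IL1A (0.91) and PTN (0.88). PTGS2 was most like the chemokine gene CCL11 (0.84), TAT (0.80) and SLC25A25 (0.79). PTGES was most like KLRA1 (0.83), KCNB2 (0.80) and FHL1 (0.80). PTGIS was most like RAB34 (0.86), SHFL (0.85) and CTNNBL1 (0.85). For PTGER2 the highest values were lower, with LEPROT at 0.81, ATP2C1 at 0.79 and RNF168 at 0.79. The PLA2G4A probe was most like OCLN, which codes for the tight junction protein occludin (0.95), TACR3 (0.91) and NQO1 (0.88). For the COX1 probe of PTGS1 they were SAYSD1 (0.88), TMX2 (0.86) and VAPB (0.86).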

How the data were processed

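Expression in CAR and ICAR of both horns was measured on 32 single-colour Agilent arrays. The authors deposited the scanner intensity of each spot, background-subtracted and not normalized between arrays (Agilent Feature Extraction 9.5 per the submitters' processing notes), and a series table of log2 values, equal to those used here plus 0.00420 to 0.0140 on each array. Groups and replicate numbers came from the labels. A number shared within a group was read as one cow, which the labels do not state. In a check, same-numbered arrays deviated together (correlation over 0.1 in 22 of 24 pairs of RB arrays, mean 0.41, and in 21 of 24 of non-RB arrays, mean 0.38), although cows and slides partly coincide. The members, lists and tests were chosen with earlier results of these data known.

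Members were matched by symbol, with further probes matched by an older name or by description, and RefSeq gave symbols for 3790 of 15208 probes. No genome build was used. Intensities became log2 minus log2 of the array's 75th percentile (1165 to 4857 intensity units), without control and outlier spots. On each array 74.3% to 85.8% of probes were well above background, and precision is set by the number of cows. A probe was tested if well above background on 2 of 8, 8 of 32 or 4 of 16 arrays, by comparison, with 3 values per group.

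Tests used limma 3.58.1 in R 4.3.3 with Benjamini-Hochberg adjustment over all probes tested and a call at 0.05, on arrays of a compartment, cow means (whole uterus), all 32 arrays (area and horn) or differences within cows (effects compared between horns or areas). The fits on all 32 arrays had no block for the cow, so arrays of a cow counted as independent. Exact two-sided tests permuted cows between groups or flipped signs of cow differences. The fits were tested on simulated data with independent noise on each array, which cannot show the effect of arrays that share a cow or slide. All members were named, with full statistics for a group difference with an unadjusted p under 0.05 or no overlap. Up to 4 called pathway genes in each direction were named, or those with the smallest p. Alternatives varied the filter, the normalization (quantile, normexp with offset 50, the deposited table), the test, the blocks (slide, scan session, replicate number) and the arrays included. Leaving out the slide 1 arrays or the contralateral arrays of RB cow 3 was added after the data were seen.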

Additional observations from a re-analysis of the deposited data

Results flagged for a closer look

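In 6 of the 64 groups of 4 arrays examined, 1 array lay far from the other 3, where chance gives about 1 in 20. PLA2G4A in ipsilateral ICAR of RB cow 4 was at -4.54, against -3.32 to -3.12 in the other RB cows. PTGES in ipsilateral CAR of non-RB cow 3 was at -0.50, against -4.04 to -3.44. PTGER2 in contralateral ICAR of non-RB cow 2 was at -4.14, against -3.19 to -3.04. HPGD in ipsilateral ICAR of RB cow 1 was at 3.12, close below the 3.43 to 3.48 of the others. The remaining 2 were contralateral arrays of RB cow 3, with PTGIS in CAR at -0.72 against 0.13 to 0.29 and PTGER4 in ICAR at 0.48 against -1.71 to -1.59.

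The horn difference differed between RB and non-RB cows by exact permutation for HPGD, by 0.91 over both areas and by 1.79 within ICAR, and for PLA2G4A within ICAR, by 0.92 (each p = 0.0286, the smallest that 4 against 4 cows allow). None passed the adjustment over all probes in limma.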

How the results depend on the processing

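Over 20 results for single genes and 389 alternatives, 360 kept their direction and their side of the threshold, 14 reversed, 11 lost and 4 gained a call. The count of members called between CAR and ICAR, 0 with all arrays, was 1 with the replicate block (cow), 2 without the contralateral arrays of RB cow 3, and 0 to 1 when each cow was left out (1 without RB cow 3). All 11 lost calls were those of HPGD between CAR and ICAR, at adjusted p of 0.0521 to 0.312. In that comparison the count over all probes was 174, against 1086 with the replicate block and 0 to 908 without single cows. Reversals were confined to horn differences near 0 of 3 genes, and their cause was not tested. PLA2G4A (0.11) was at -0.10 with the scan session as a block. PTGES (0.03) was at -0.049 with normexp, -0.24 with the slide and -0.17 with the session as a block, -0.19 without the slide 1 arrays, and from -0.089 to 0.13 without single cows. HPGD (-0.02) was at 0.012 with quantile normalization, 0.011 with the session as a block, 0.10 without the slide 1 arrays, 0.012 without the contralateral arrays of RB cow 3, and from -0.15 to 0.11 without single cows. RB and non-RB cows with the same replicate number were different animals. Their arrays had a correlation over 0.1 in 11 of 16 pairs (mean 0.13), and pairs with other numbers were not set beside these. With the replicate block HPGD in ipsilateral ICAR had an adjusted p of 0.7503. With no replicate block the HPGD horn differences between groups had unadjusted p of 0.0722 over both areas and 0.0145 within ICAR (limma). The number of cows limits all comparisons, and probes not well above background have only a bound.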
